A study of Mus musculus with 8 samples.

Results

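B cells whose receptor carried an IgG2b, IgG2c or IgG3 heavy chain made up 80 of the 14380 barcodes with a heavy chain in 3 B cell receptor libraries of mouse deep cervical lymph nodes, the nodes that drain the brain and its coverings. A barcode was counted when its heavy chain contig with the most UMIs (unique molecular identifiers, 1 per captured transcript) was assigned to the constant gene IGHG2B, IGHG2C or IGHG3, and its transcripts were read from the expression library of the same treatment. The mice of these libraries were C57BL/6 with untouched B cells, and live immune cells were sorted from the nodes on day 20. The saline library came from mice injected in the brain with DPBS, a buffered saline. The isotype and anti-CTLA-4 libraries came from mice injected in the brain with GL261, a mouse glioma line that grows in this strain, and treated with a control IgG or with an antibody that blocks CTLA-4, an inhibitory receptor of T cells. The joint clustering also used 2 expression libraries of GL261 mice depleted of B cells with anti-CD20, an antibody against a B cell surface protein, and treated with the control IgG or anti-CTLA-4; no receptor library of these mice was analysed here. The sources used here do not say whether the saline mice were given an antibody, nor the doses, the age or the number of mice per library. Each group had 1 receptor library and 1 expression library, so differences between groups were not tested, and every interval below is a 95% interval that covers counting error only.

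A B cell leaves the bone marrow with IgM and IgD. Class switching cuts out the IgM gene and the DNA from it to a downstream constant gene, so the antigen-binding V segment stays while the constant region changes. The V segment is also mutated, mostly in germinal centres, where mutated cells are selected before they leave as memory or plasma cells. In mice, interferon gamma is known to direct switching to IgG2c, TGF-beta to IgG2b and interleukin 4 to IgG1, and IgG2b and IgG2c bind the activating Fc receptors of phagocytes and natural killer cells. IgG3 is a frequent early isotype, known from responses that need no T cell help. All constant genes lie on the minus strand of chromosome 12 (GRCm38.p6, RefSeq), in the order of switching: Ighm at 113418826 to 113422730, Ighd at 113407535 to 113416324, Ighg3 at 113357442 to 113361232, Ighg1 at 113326541 to 113330523, Ighg2b at 113304314 to 113307933 and Ighg2c at 113287389 to 113288932. A cell that has switched to Ighg2c has therefore deleted the other IgG genes from that chromosome, whereas an IgG3 cell still holds all of them.

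The receptors that the results turn on are shown by the DNA of complementarity-determining region 3 (CDR3), the part made where V, D and J segments join. Read 5' to 3', each begins at the codon of the conserved cysteine and ends at that of the tryptophan. Capitals mark bases that differ from the base most common at that position among the related cells of the library. The first 6 are from saline lineages whose CDR3 bases varied between cells, 4 sequences from 5 IgG2c cells and 2 from 4 IgG3 cells. The next 4 are clones of the tumour-bearing mice whose IgG2b and IgG2c cells were all plasma cell-like, and each was identical in every cell of its clone. The last 3 are an IgG2c lineage of the anti-CTLA-4 library found in both kinds of cell.
saline IGHV1-64 IgG2c, 1 cell: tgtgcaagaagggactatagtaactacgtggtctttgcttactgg
saline IGHV1-64 IgG2c, 2 cells: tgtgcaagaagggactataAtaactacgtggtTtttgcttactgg
saline IGHV1-64 IgG2c, 1 cell: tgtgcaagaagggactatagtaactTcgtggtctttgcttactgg
saline IGHV1-64 IgG2c, 1 cell: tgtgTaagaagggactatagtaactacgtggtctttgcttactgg
saline IGHV1-55 IgG3, 3 cells: tgtgtgactagggagtttgcttactgg
saline IGHV1-55 IgG3, 1 cell: tgtgtgactagggagtttgTttactgg
isotype IGHV1-72, 5 IgG2c and 5 IgM cells: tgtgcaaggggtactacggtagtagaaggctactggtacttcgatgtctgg
isotype IGHV1-82, 3 IgG2b and 2 IgG1 cells: tgtgcagtatggatggactactgg
isotype IGHV8-8, 2 IgG2b, 1 IgG2c and 1 IgM cell: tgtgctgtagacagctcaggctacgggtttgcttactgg
anti-CTLA-4 IGHV2-3, 6 IgG2b and 1 IgG2c cell: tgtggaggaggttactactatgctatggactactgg
anti-CTLA-4 IGHV1-74 IgG2c, plasma cell-like: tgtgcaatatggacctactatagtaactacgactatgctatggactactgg
anti-CTLA-4 IGHV1-74 IgG2c, removed as a doublet: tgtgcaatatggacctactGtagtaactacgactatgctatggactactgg
anti-CTLA-4 IGHV1-74 IgG2c, germinal centre B-like: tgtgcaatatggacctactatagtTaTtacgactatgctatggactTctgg

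The last lineage is also shown over its whole V segment, from framework 1 to framework 3 (285 bases), because it sets an unmutated and 2 mutated relatives side by side. Its plasma cell-like member had 3979 heavy chain UMIs and the sequence most common for IGHV1-74 in IgM and IgD cells, which 203 of them held. Capitals mark mismatches to that sequence, and positions are counted from 1 at the first base of framework 1. The cell removed as a doublet carried G167C, G169A and A194G, and the germinal centre B-like cell carried G102A, G109C, A148G, G189T and G230C.
IGHV1-74, plasma cell-like, 0 mismatches: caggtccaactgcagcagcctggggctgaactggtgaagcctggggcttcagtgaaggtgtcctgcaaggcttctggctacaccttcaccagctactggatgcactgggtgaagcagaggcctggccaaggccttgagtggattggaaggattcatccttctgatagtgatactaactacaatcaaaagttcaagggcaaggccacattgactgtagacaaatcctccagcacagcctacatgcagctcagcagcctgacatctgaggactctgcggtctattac
IGHV1-74, removed as a doublet, 3 mismatches: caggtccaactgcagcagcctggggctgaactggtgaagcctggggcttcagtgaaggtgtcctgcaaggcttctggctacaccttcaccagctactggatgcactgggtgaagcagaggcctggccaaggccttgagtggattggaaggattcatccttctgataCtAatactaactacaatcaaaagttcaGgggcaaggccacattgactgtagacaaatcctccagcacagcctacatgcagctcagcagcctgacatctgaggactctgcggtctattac
IGHV1-74, germinal centre B-like, 5 mismatches: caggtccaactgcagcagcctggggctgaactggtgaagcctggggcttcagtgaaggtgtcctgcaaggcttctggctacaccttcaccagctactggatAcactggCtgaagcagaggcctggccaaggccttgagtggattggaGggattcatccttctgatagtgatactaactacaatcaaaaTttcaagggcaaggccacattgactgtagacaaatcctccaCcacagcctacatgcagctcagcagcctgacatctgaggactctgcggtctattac
The mutated cells shared none of these substitutions with each other. All 3 used the same light chain V gene, IGKV14-111, and the doublet fell among the germinal centre B-like cells when doublets were kept.

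The receptor libraries held 334425 (saline), 775010 (isotype) and 585054 (anti-CTLA-4) UMIs, and the expression libraries 54715065, 55770528 and 63497466. Barcodes shared between 2 libraries numbered 37 to 38 among those with a heavy chain, and none of these was a member in both, although 3 members' barcodes also occurred in another expression library. Of the 80 cells, 61 were kept in B lineage clusters (11 saline, 31 isotype and 19 anti-CTLA-4), 15 were removed as doublets, 2 were removed by the quality filter and 2 fell outside the B lineage. Every kept cell had UMIs of the B lineage genes Cd79a, Cd79b or Ms4a1. UMIs of the T cell list (Cd3d, Cd3e, Cd3g, Trac, Cd4 and Cd8a) occurred in 1 of 11, 5 of 31 and 3 of 19 kept cells (1, 89 and 19 UMIs in the 3 libraries), against 1 of 2, 3 of 5 and 4 of 8 removed as doublets. Of the 6 myeloid genes 5, 4 and 3 stood at 0 in saline, isotype and anti-CTLA-4 kept cells, the macrophage genes Lyz2, C1qa and C1qb in all 3. The list summed to 176, 298 and 424 CPM of all UMIs, nearly all from Cst3 (31, 247 and 211 of 31, 249 and 220 UMIs), which also had UMIs in 57.4%, 52.2% and 50.8% of IgM or IgD cells. Siglech, Xcr1 and Clec9a of the dendritic cell lists stood at 0 in the 3 libraries, while the plasmacytoid list summed to 187, 337 and 326 CPM (mostly Bst2 and Tcf4) and the conventional list to 142, 40.7 and 25.1. The part of these transcripts in the gene comparisons was not tested.

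Receptors of the 3 isotypes were a small share of heavy chains in every library. The saline library held 14 of 4496 (0.311%, exact Clopper-Pearson interval 0.170 to 0.522), the isotype library 39 of 4522 (0.862%, 0.614 to 1.18) and the anti-CTLA-4 library 27 of 5362 (0.504%, 0.332 to 0.732). The isotype share was 2.77 times the saline share (1.51 to 5.09), and the anti-CTLA-4 share was 0.584 times the isotype share (0.358 to 0.952) and 1.62 times the saline share (0.849 to 3.08). With each clone counted once the 2 ratios to and from the isotype library were 2.53 and 0.571. IgG2b was carried by 4, 19 and 12 cells and IgG2c by 5, 18 and 13. Their isotype to saline ratios were 4.72 (1.61 to 13.9) and 3.58 (1.33 to 9.63). IgG3 ran the other way in number, with 5, 2 and 2 cells and a ratio of 0.398 (0.0772 to 2.05), an interval that includes no difference.

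IgG1, the isotype the 3 were compared with, was carried by 5, 21 and 82 cells. Its share was 3.29 times higher in the anti-CTLA-4 than in the isotype library (2.04 to 5.31), where that of IgG2b, IgG2c and IgG3 together was lower. Members were 14 of 19 IgG cells in the saline library (73.7%, 48.8 to 90.9), 39 of 60 in the isotype library (65%, 51.6 to 76.9) and 27 of 109 in the anti-CTLA-4 library (24.8%, 17.0 to 34). The last interval lies below the other two.

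The isotypes were checked against constant gene transcripts in the expression libraries. The cell's own Ighg gene had the most UMIs of the IgG genes in 69 of 80 cells, tied in 2, was exceeded in 7 and no IgG gene was detected in 2. Ighg2b UMIs were found in 35 of 35 IgG2b cells, Ighg2c UMIs in 33 of 36 IgG2c cells and Ighg3 UMIs in 8 of 9 IgG3 cells. Among the 14135 IgM or IgD cells, which have not deleted these genes, the shares were 0.835%, 0.177% and 0.608%. These 14135 cells were shallower, with a median of 3929 UMIs against 22593, 17301.5 and 16619. In the 91 of them that were germinal centre B-like, with a median of 18856 UMIs, the shares were higher, at 17.6%, 8.79% and 30.8%. Ighg2b transcripts also appeared in 5 of 9 IgG3 cells, a gene that an IgG3 cell has not deleted. In the 4 saline IGHV1-55 IgG3 cells Ighg3 and Ighg2b had 1 and 3, 18 and 3, 5 and 17, and 4 and 2 UMIs, while no IgG3 cell had an Ighg2c UMI. Ighg2b UMIs occurred in 9 of 36 IgG2c cells too. Ighg2b and Ighg2c are close paralogs, and how reads shared between them were counted is not given in the sources used here, so these low counts are uncertain.

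Nearly all kept cells of the 3 isotypes fell into a plasma cell-like or a germinal centre B-like cluster, and the mix differed between libraries. These names come from clusters built without immunoglobulin genes. The germinal centre B-like cluster had Pclaf, Mki67, Basp1 and Mef2b among its leading genes, and the plasma cell-like cluster was led by Slpi, Jchain, Ly6c2, Prg2 and Cxcl10. In the saline library 9 of 11 kept members were germinal centre B-like (81.8%, 48.2 to 97.7) and 0 of 11 were plasma cell-like (upper bound 28.5%). Those 9 cells came from 3 lineages, and the intervals treat related cells as separate. The saline expression library did hold 1 plasma cell-like cell with 757 Ighg2b UMIs, but no heavy chain of it was counted in the receptor library, so it is not among the members; the isotype library held 1 such cell as well. In the isotype library 11 of 31 were germinal centre B-like (35.5%, 19.2 to 54.6) and 14 plasma cell-like (45.2%, 27.3 to 64.0). In the anti-CTLA-4 library 5 of 19 were germinal centre B-like (26.3%, 9.15 to 51.2) and 14 plasma cell-like (73.7%, 48.8 to 90.9). Memory or innate-like cells numbered 1, 4 and 0 and follicular B-like cells 1, 2 and 0.

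**Figure D1:**
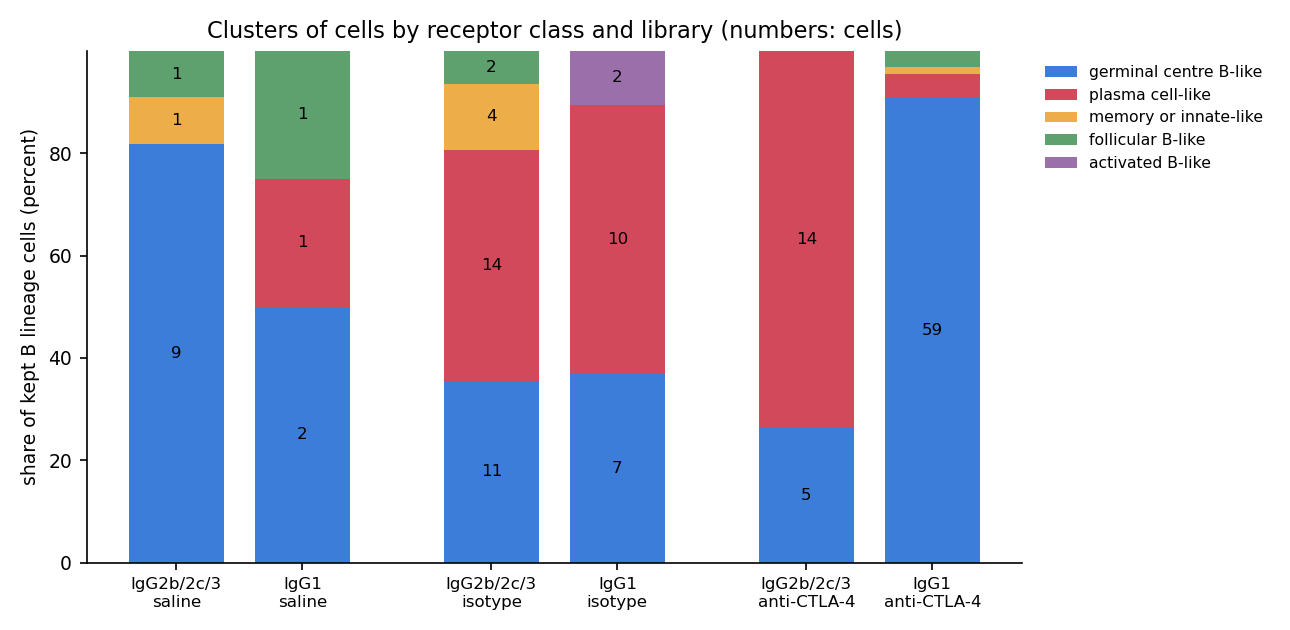
Share of kept B lineage cells (y axis, percent) in each cluster class, for IgG2b, IgG2c or IgG3 cells and for IgG1 cells of each library (x axis). Numbers inside the larger segments are cells. Plasma cell-like cells were 0, 14 and 14 of the IgG2b, IgG2c or IgG3 cells and 1, 10 and 3 of the IgG1 cells.

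The anti-CTLA-4 shares depended on the doublet call. Of its 27 members 8 were removed as doublets, and when doublets were kept 51.9% were plasma cell-like and 40.7% germinal centre B-like. The 14 plasma cell-like members of the isotype library came from 6 clones with the largest at 5 cells, and the 14 of the anti-CTLA-4 library from 8 clones with the largest at 7. Without that clone plasma cell-like cells were 9 of 26 and 7 of 12. IgG1 cells had 1 of 4, 10 of 19 and 3 of 65 kept cells in the plasma cell-like class (25%, 52.6% and 4.62%). Its germinal centre B-like cells numbered 2, 7 and 59. The member minus IgG1 difference in plasma cell-like share was -25, -7.47 and 69.1 percentage points in the saline, isotype and anti-CTLA-4 libraries, a contrast with 1 library per group that was not tested.

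The isotypes were placed differently, which cannot be told apart here from their uneven spread over libraries and clones. All 28 plasma cell-like members were IgG2b (16) or IgG2c (12). All 9 kept IgG2b cells of the anti-CTLA-4 library were plasma cell-like, 6 of them from the IGHV2-3 clone. Another 3 IgG2b cells there were removed as doublets, and 2 IgG2b cells were germinal centre B-like when doublets were kept. None of the 7 kept IgG3 cells was plasma cell-like. Of them 6 were germinal centre B-like, and 1, an IGHV1-18 cell of the saline library with 14 mismatches, was memory or innate-like. The saline library held 5 of these 7, and 0 of its 11 kept members of any isotype were plasma cell-like. The 2 IgG3 cells of the anti-CTLA-4 library were removed as doublets and fell among germinal centre B-like cells when kept.

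Transcript amounts separated the classes. Plasma cell-like members had 1960 to 20047 heavy chain UMIs in the receptor libraries (median 6012), and germinal centre B-like members 1 to 260 (median 18). No plasma cell-like member fell within the germinal centre range. In the expression libraries plasma cell-like members had 370 to 2380 UMIs of their own Ighg gene (median 863), 8.95% to 72% of all UMIs from immunoglobulin genes (median 47.8%) and a median of 532.5 UMIs of Jchain, the linker of polymeric antibodies. Germinal centre B-like members had medians of 5 own Ighg UMIs, 0.870% and 6. The 5 memory or innate-like members had 0 Jchain UMIs.

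**Figure D2:**
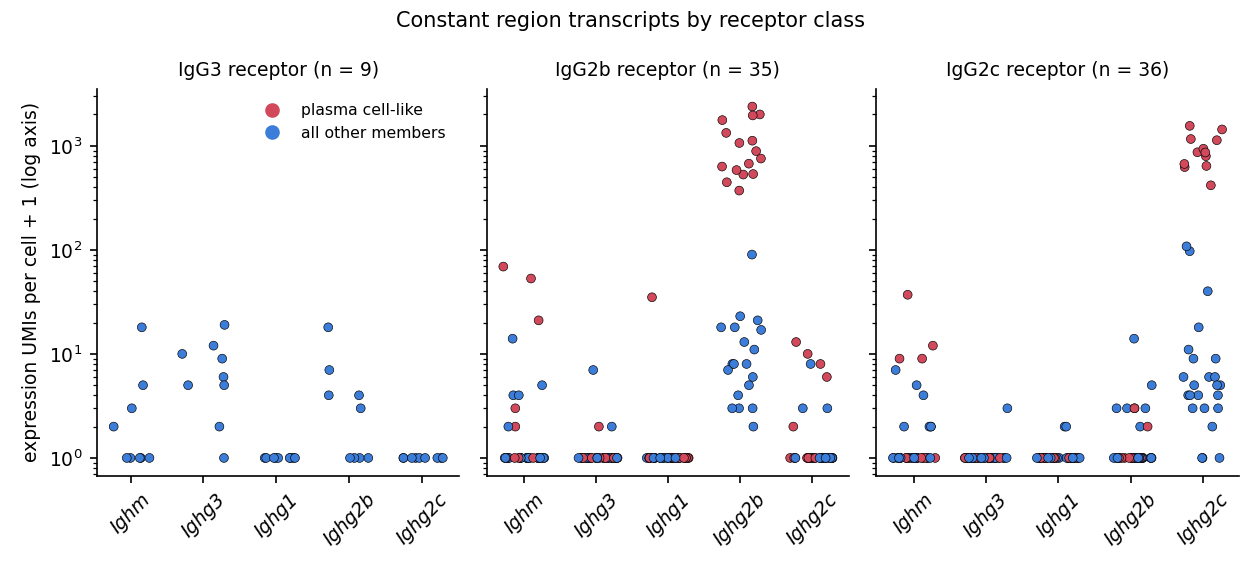
UMIs of constant genes in the expression libraries for cells of each receptor isotype, on a log axis. Each point is a cell, shown as UMIs plus 1, red where plasma cell-like. Plasma cell-like cells have 370 or more UMIs of their own gene, and all other members 107 or fewer.

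V segment mutation split along the same line. A cell was counted as mutated with at least 2 mismatches over frameworks 1 to 3 to the most common sequence of its V gene in IgM and IgD cells. Of the germinal centre B-like members 20 of 25 were mutated (median 7 mismatches), and of the plasma cell-like members 1 of 28 was, with 25 at 0. Per library the germinal centre B-like counts were 9 of 9 saline, 6 of 11 isotype and 5 of 5 anti-CTLA-4, and the plasma cell-like counts 0 of 14 isotype and 1 of 14 anti-CTLA-4. The germinal centre B-like cells came from 3, 9 and 3 lineages. The exception, an IGHV4-1 IgG2b cell, had 7 mismatches. With doublets kept the germinal centre B-like counts were 10 of 10, 8 of 13 and 10 of 11. IgG1 plasma cell-like cells were mutated in 4 of 14 and germinal centre B-like ones in 45 of 67.

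**Figure D3:**
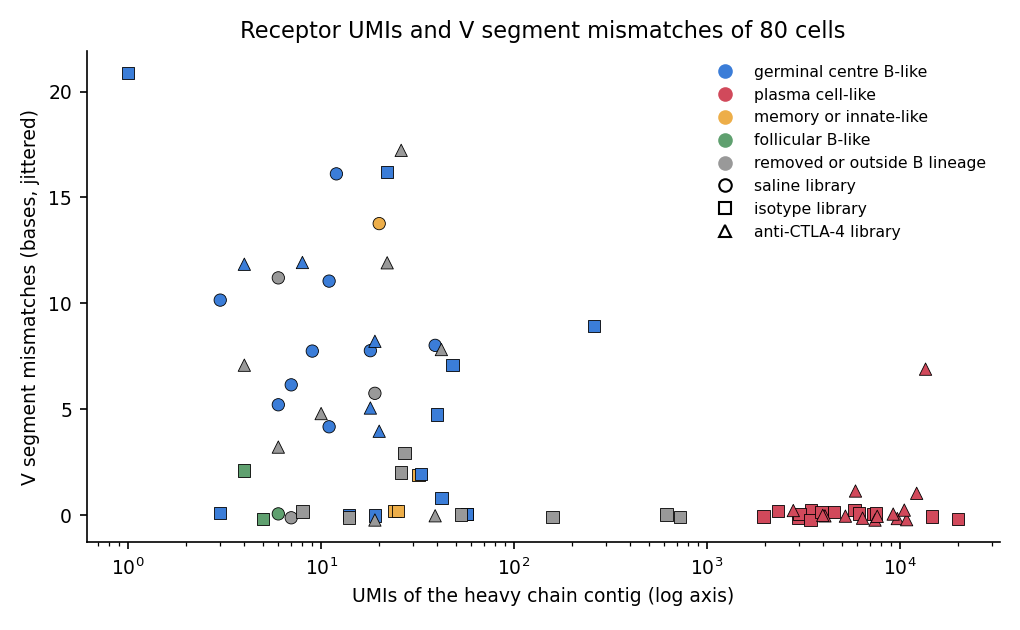
Heavy chain UMIs (x axis, log scale) against V segment mismatches (y axis, bases) for the 80 cells, coloured by cluster class, with the shape giving the library and a small vertical jitter. The plasma cell-like cells sit at 1960 or more UMIs and, with 1 exception at 7, at few mismatches. The others reach 21, in a cell with 1 heavy chain UMI.

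Over whole libraries the share mutated was highest in saline. It was 12 of 14 in the saline library (85.7%, 57.2 to 98.2; median 8 mismatches), 10 of 39 in the isotype library (25.6%, 13.0 to 42.1; median 0) and 12 of 27 in the anti-CTLA-4 library (44.4%, 25.5 to 64.7; median 1). These cells came from 7, 26 and 16 lineages. The intervals treat related cells as separate, so the saline share is less certain than its interval. Over all libraries 43 of the 80 cells had 0 mismatches, and the range was 0 to 21. The cell with 21, an isotype IGHV1-15 IgG3 cell, is uncertain. It had 1 heavy chain UMI, and its expression barcode had 0 Ighg3 and 2 Ighm UMIs. The next highest count was 17. Light chains gave 9 of 13, 5 of 39 and 9 of 27 cells with 2 or more. By isotype, 12 of 35 IgG2b, 14 of 36 IgG2c and 8 of 9 IgG3 cells were mutated. IgG2c differed most between libraries, with 5 of 5 saline cells, 1 of 18 isotype cells and 8 of 13 anti-CTLA-4 cells mutated. The 8 mutated anti-CTLA-4 cells were its IgG2c cells that were not plasma cell-like. Their transcripts held 11 Ighg2b UMIs, in 5 of the cells, and 13 Ighg2c UMIs, in 6, so their isotype is uncertain. The 5 saline cells were joined as relatives by CDR3 identity, so they count as 1 lineage.

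Substitutions were denser in the CDRs and in short sequence contexts known as mutation hotspots of V segments. Counted once per lineage, 240 distinct substitutions were found in 25 lineages. The CDR1 and CDR2 held 58 (5.91 per 100 bases, 47 of them changing the amino acid and 11 silent), and the frameworks 182 (2.96 per 100 bases, 115 and 67). At the C of AAC, AGC, TAC or TGC, or the G of GTT, GCT, GTA or GCA, their reverse complements, lay 101 of 240 (42.1%), where 14.3% of the bases were in such a place. Transitions were 136 (56.7%), and 149 (62.1%) were at C or G. Of the 240, 20 came only from the isotype IGHV1-15 IgG3 cell whose heavy chain had 1 UMI. These are descriptions of the lineages, with no test.

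The saline IGHV1-64 IgG2c lineage fell into 2 sets of cells, called branches here. Its 5 cells had 8, 10, 11, 11 and 16 mismatches and 34 distinct substitutions, of which 0 were shared by all 5. That the branches are related rests on similar CDR3 bases and the same heavy and light chain V genes. A branch of 3 cells shared A2T, G22C, G30A, C31G, C83T, C103T, C115G and T215C, and a branch of 2 cells shared A29C, A95C, A175G, C247A and C255T. G170A occurred in 1 cell of each branch. Of 499 IgM or IgD cells that used IGHV1-64, 0 carried any of the substitutions shared within a branch. All 4 of its kept cells were germinal centre B-like, and 1 was removed by the filter. The saline IGHV1-55 IgG3 lineage had 4 to 8 mismatches, with all 4 cells germinal centre B-like. Of its 19 distinct substitutions 0 were shared by all 4, and the cell with 6 mismatches shared none with the rest. Both lineages came from mice without a tumour.

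In the tumour-bearing mice, unmutated clones shared receptors across isotypes. The isotype IGHV1-72 clone, the largest with 10 cells, had 5 IgG2c and 5 IgM cells, and all its IgG2c cells were plasma cell-like with 0 mismatches. The IgG2b and IgG2c cells of the IGHV1-82 and IGHV8-8 clones shown above likewise had 0 mismatches and were plasma cell-like. Each of these clones also held 1 germinal centre B-like cell of another isotype. The anti-CTLA-4 IGHV2-3 clone had 7 plasma cell-like cells, with at most 1 mismatch in a cell. By receptor contig, 8 of the 12 mutated cells of this library were IgG2c, 3 IgG2b and 1 IgG3. Among the IgG2c cells, 3 IGHV1-12 cells with 4, 7 and 8 mismatches shared A91G, T171A, G189C and C228T, and 2 IGHV9-1 cells with 12 each shared C97T, G102A and C233G of 21.

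Members stood in clones of 2 or more cells (same library, V gene, J gene and CDR3) in 5 of 14 saline (35.7%, 12.8 to 64.9), 19 of 39 isotype (48.7%, 32.4 to 65.2) and 12 of 27 anti-CTLA-4 cells (44.4%, 25.5 to 64.7). The intervals overlap. For IgM or IgD cells the shares were 1.68%, 1.31% and 0.554%, and for IgG1 cells 0 of 5, 10 of 21 and 34 of 82. Of the 14 clones, 10 held another isotype, 4 IgM, 5 IgG1 and 3 both IgG2b and IgG2c. Among the 58 member receptors, 1 recurred in another library with the same V gene and CDR3, an isotype IgG2b cell of IGHV1-39 whose counterpart was a saline IgM cell. Counted once per clone, 65.5% of members used the IGHV1 family against 65.7% of IgM or IgD clones, and the median CDR3 was 42 bases in both. IGHJ2 was used by 41.4% against 30.8%, with 12 of 19 clones in the anti-CTLA-4 library. Lambda light chains were 4 of 57 (7.02%) against 4.87%.

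Gene expression was compared with IgM or IgD cells on UMIs summed per library and receptor class, with immunoglobulin genes left out. The test (edgeR's quasi-likelihood test with Benjamini-Hochberg adjustment, library as a block) asks for a difference shared by the 3 libraries, which are different conditions. Of 7847 genes tested, 838 were higher in the IgG2b, IgG2c and IgG3 cells (10.7%) and 591 lower (7.53%), 18.2% in either direction. The counts rested most on the isotype library: without it they were 103 and 44, and without the anti-CTLA-4 library 367 and 249. Kept members were also deeper, with medians of 10241, 26087 and 28743 UMIs per cell against 3952, 3875 and 3550, and the part of depth was not tested. A higher or lower level in the sums cannot be told apart from a larger share of germinal centre B-like or plasma cell-like cells, which were rare among IgM or IgD cells. Counts per list below stand beside 10.7% higher and 7.53% lower over all genes tested. Levels below are CPM, UMIs of a gene per 1000000 UMIs of the summed cells, immunoglobulin and T cell receptor genes left out of that total. In anti-CTLA-4 members the total was 308187 of 518399 UMIs, so their levels are higher than per all UMIs.

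Germinal centre genes rose together: 11 of the 12 on the list were higher, with a median log2 fold of 4.11 against 0.02 over all genes. The list also served to name the cluster. S1pr2, the receptor that holds cells in the germinal centre, stood at 154, 54.7 and 22.7 CPM in saline, isotype and anti-CTLA-4 members against 1.29, 2.08 and 9.02 in IgM or IgD cells. Every member level lay above every IgM or IgD level, by least in the anti-CTLA-4 library. Its log2 fold was 4.45 ± 0.76 (SE, adjusted p = 0.00391, edgeR). Basp1 followed the same order, at 868, 353 and 292 against 6.23, 14.6 and 33.8 CPM (4.92 ± 0.64, adjusted p = 0.00124, edgeR), with no overlap between the classes. Nuggc was higher by 4.96 on the log2 scale and Mybl1 by 4.16. Bcl6, the master regulator of the germinal centre, was the list's member that was not called, at 97.0, 63.0 and 32.4 against 78.4, 81.6 and 81.2 CPM (-0.40 ± 0.36, adjusted p = 0.476, edgeR).

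**Figure D4:**
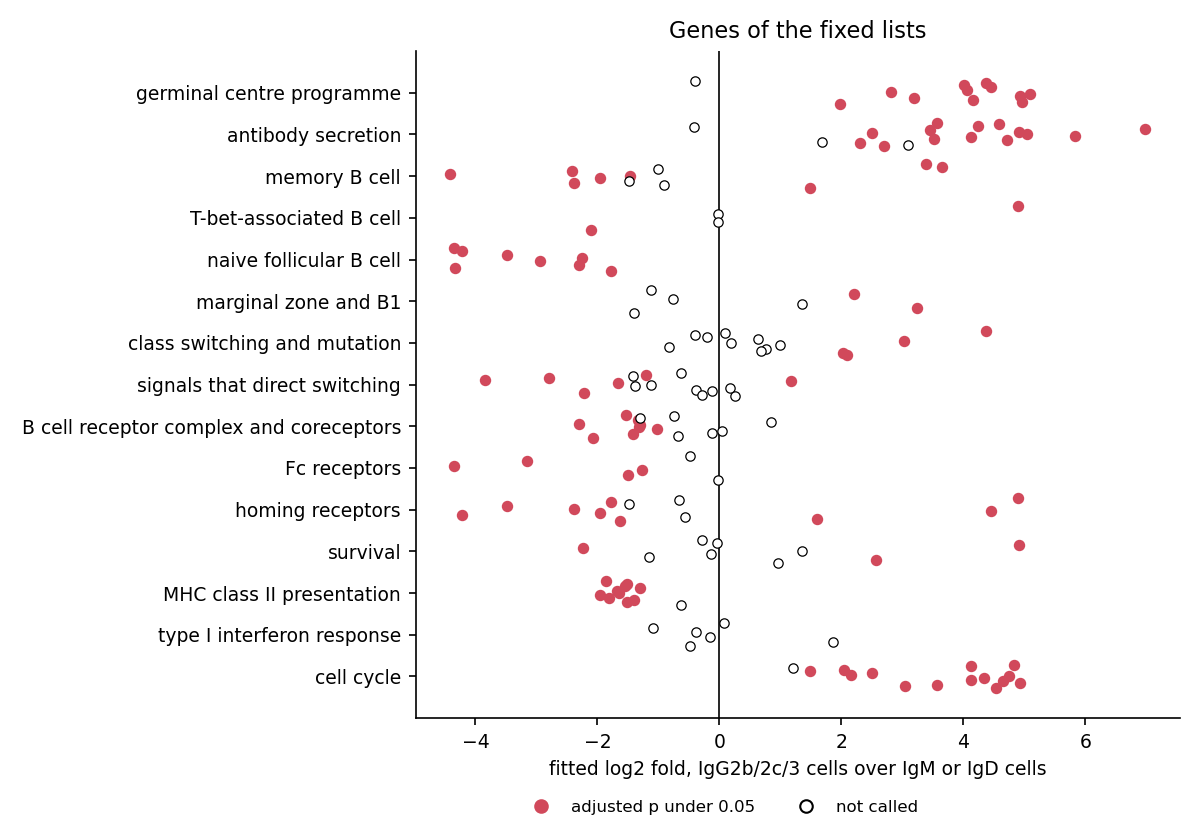
Fitted log2 fold of members over IgM or IgD cells (x axis) for the genes of 15 lists (y axis). Filled points passed the adjusted p threshold of 0.05; germinal centre, secretion and cell cycle genes lie to the right, follicular and MHC class II genes to the left.

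Antibody secretion genes were higher in 14 of 17 (median 3.57). Jchain stood at 308, 15392 and 35050 CPM against 4.29, 332 and 108, a log2 fold of 6.98 ± 1.75 (adjusted p = 0.022, edgeR). The saline members, without plasma cell-like cells, were lowest by far, and still above their IgM or IgD cells. Prdm1, the repressor that starts plasma cell differentiation, had 0, 61.3 and 77.9 CPM against 1.70, 2.08 and 1.75. Tnfrsf17, the survival receptor BCMA, had 0, 9.95 and 48.7 against 0, 1.67 and 0.383. Both were higher (4.59 and 4.92), while listed at 0 in saline members. Tent5c, which stabilises immunoglobulin mRNA, was higher by 4.73, and Herpud1 of the ER stress response by 2.30. Outside the lists the largest rises were Prg2 (8.77), Slpi, a secreted protease inhibitor (8.07), Chst1 (7.74) and Cped1 (7.73). Slpi had 5.71, 13153 and 33820 CPM in members.

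Genes of resting follicular B cells were lower in 8 of 8 (median -3.21). Ccr7, the receptor for T zone chemokines, stood at 114, 104 and 58.4 CPM against 1046, 1033 and 885 (-3.49 ± 0.29, adjusted p = 0.000304, edgeR). All member levels lay below all IgM or IgD levels. The low-affinity IgE receptor Fcer2a (CD23) was lower by a log2 fold of -4.35 and Cd55 by -4.33. MHC class II presentation genes were lower in 10 of 11 (median -1.55). H2-Aa had 3322, 2109 and 1071 CPM against 7178, 7451 and 7437 (-1.86 ± 0.31, adjusted p = 0.00366, edgeR). Fc receptor genes were lower in 4 of 6, among them Fcmr, the IgM receptor (-3.15), and B cell receptor complex genes in 8 of 14, among them Cd79a (-1.52), Cd72 (-2.07) and Syk (-1.31).

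**Figure D5:**
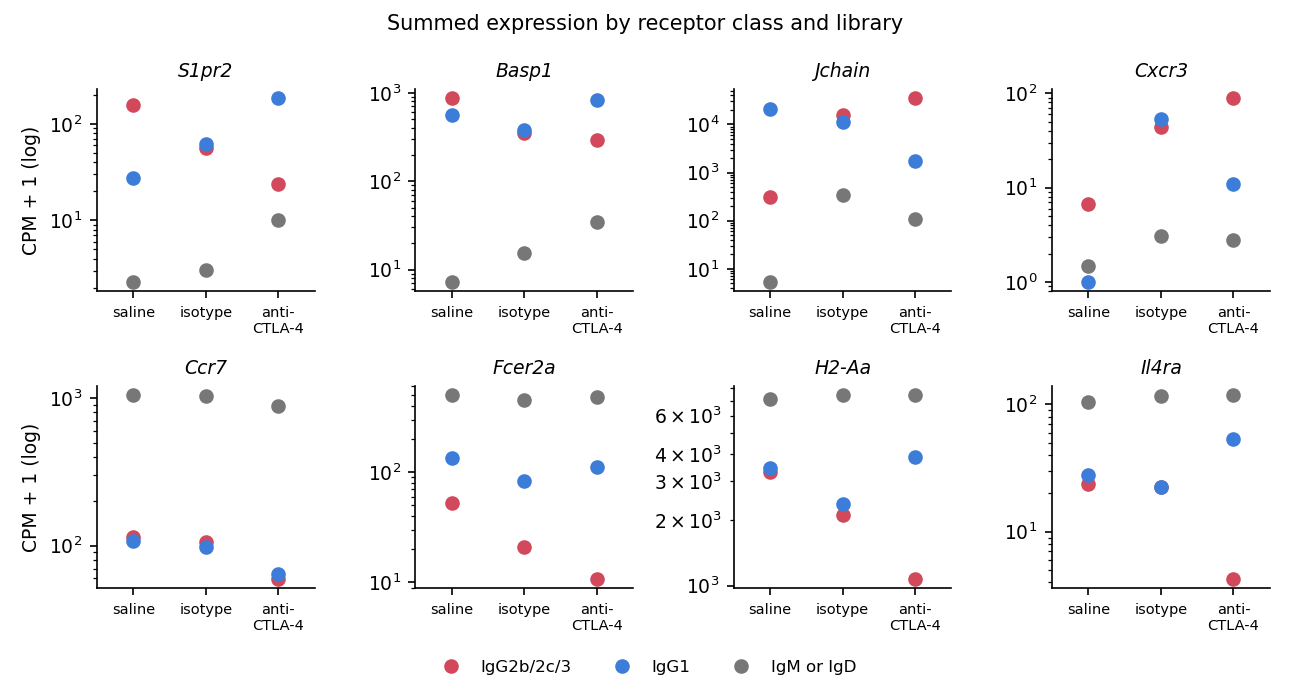
Summed expression (y axis, CPM plus 1, log scale) of 8 genes in each library (x axis) for the 3 receptor classes. Points are sums of 1 library; Ccr7 members lie between 58.4 and 114 CPM and IgM or IgD cells between 885 and 1046.

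Of the switching and mutation machinery 4 of 13 genes tested were higher and 0 lower (median 0.69), among them the resection enzyme Exo1 (3.03), the translesion polymerase Polh (2.09) and Hmces (2.03), which shields abasic sites. Among signals that direct switching 1 of 15 was higher and 5 lower, where 10.7% and 7.53% of all genes tested were. Within germinal centre B-like cells alone 0 of the 11 tested were called (median -0.23), where 0.542% of all genes were. The interleukin 4 receptor gene Il4ra stood at 22.8, 21.6 and 3.24 CPM against 103, 116 and 117 (-2.80 ± 0.48, adjusted p = 0.00405, edgeR). Stat6, which carries its signal, was lower by a log2 fold of -2.22, Il10ra by -3.84 and the TGF-beta receptor subunit Tgfbr2 by -1.66, while Tgfbr1 was higher by 1.18. Tbx21, the T-bet gene of the interferon gamma response, had too few UMIs to be tested (5.71, 21.6 and 9.73 CPM).

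Cxcr3, a receptor for chemokines induced by interferon gamma, rose from 0.470, 2.08 and 1.80 CPM in IgM or IgD cells to 5.71, 43.1 and 87.6 in members (4.90 ± 0.67, adjusted p = 0.00156, edgeR). The saline level was near the floor. Most UMIs of the tumour libraries lay in plasma cell-like members, 23 isotype and 25 anti-CTLA-4. The median such cell had 0.5 in each library, and 30.4% and 48% of them came from 1 cell. As a gene, Cxcr3 thus rested on few cells. Cxcr3 was the called riser of the T-bet-associated list, in which Zeb2 was lower (-2.10). Homing receptors were higher in 3 of 12 and lower in 6. Memory genes were higher in 3 of 11, among them Nt5e (3.66), and lower in 5, among them Hhex (-4.41) and Cd38 (-2.42). Marginal zone and B1 genes were higher in 2 of 6, Spn (3.24) and Cd9 (2.2), and survival genes in 2 of 9, with Pim1 higher (2.58) and Bcl2 lower (-2.24). Cell cycle genes were higher in 14 of 15 (median 4.12), with Cdk1 at 160, 148 and 169 against 1.76, 7.91 and 11.6 CPM. The 6 type I interferon response genes tested gave 0 calls by edgeR. Ccl4, a chemokine of stimulated B cells, had 0 UMIs in members against 1779 in IgM or IgD cells, at least 12.2-fold lower with a floor of 3 counts over the group. Zfp318, needed for IgD expression, had 1 UMI against 8943.

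The comparison was repeated within germinal centre B-like cells alone (9, 11 and 5 members against 8, 33 and 50 IgM or IgD cells), where 7 of 4983 genes were higher (0.14%) and 20 lower (0.401%), 0.542% in all. Fewer cells entered this fit, so fewer calls do not show that the rest are equal. The germinal centre list had 12 of 12 positive folds with a median of 0.67 and 1 call, Basp1, at 963, 623 and 1003 CPM against 420, 211 and 515 (1.25 ± 0.24, adjusted p = 0.000905, edgeR). Tox (1.91) and Trerf1 (2.2) were also higher. Lower were Plac8 (-3.91), the ectoenzyme gene Cd38 (-3.18), Ly6d (-2.51), Foxp1, a transcription factor of resting B cells (-1.92), and the adaptor gene Bank1 (-1.71). Ly6d had 141, 75.4 and 136 CPM against 590, 808 and 426 (± 0.33, adjusted p = 4.99e-07, edgeR), with no overlap. The MHC class II gene H2-Aa had a log2 fold of 0.079 here, and Pim1 -0.70, the reverse of their direction in all cells.

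Against IgG1 cells, the other switched class, edgeR called 0 of 7847 genes in either direction (0.0%), with 272 at an unadjusted p under 0.05. DESeq2 called 1 higher and 1 lower. Without plasma cell-like cells 4 genes were higher, Plac8, Arhgap24, Hspb1 and Pde3b, and in germinal centre B-like cells alone 1 was lower, Slpi (-1.88). Antibody secretion genes had a median log2 fold of 0.38, germinal centre genes -0.23 and MHC class II genes -0.56. The IgG1 sums held 4, 19 and 65 cells, mostly germinal centre B-like in the anti-CTLA-4 library, where the members were mostly plasma cell-like. There Jchain stood at 35050 CPM in members and 1733 in IgG1 cells, and S1pr2 at 22.7 and 183. In the isotype library, where 45.2% of members and 52.6% of IgG1 cells were plasma cell-like, Jchain had 15392 and 11293 CPM and S1pr2 54.7 and 60.5.

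Plasma cell-like members could be set side by side between the isotype and anti-CTLA-4 libraries, 14 cells each. In the sums Jchain was 1.38 times as high under anti-CTLA-4 (1.34 to 1.42), with 31258 and 43206 CPM. The median cell did not follow, with 28936 CPM among isotype cells and 27733 among anti-CTLA-4 cells (ratio 0.958), and 20.9% and 20.2% of the Jchain UMIs came from 1 cell. The ratio of the Jchain sums was 1.35 without the top cell of each library and 1.60 without the largest clone of each. The chaperone gene Hspa5 was 1.67 times as high (1.49 to 1.87), but 0.713 times without the largest clone of each library. The replication gene Mcm6 was 3.40 times as high (1.86 to 6.58), with 46.7% of its isotype and 45.5% of its anti-CTLA-4 UMIs in 1 cell. Its ratio was 3.79 without those cells and 4.97 without the largest clone of each library. Xbp1, the secretory transcription factor, was 0.629 times as high (0.565 to 0.699), Cd79a 0.571 times (0.459 to 0.708; ratio of medians over cells 0.982) and H2-Eb1 0.365 times (0.271 to 0.487; ratio of medians 0.344). Cxcr3 was 1.26 times as high (0.687 to 2.32), so no difference was detectable. The intervals cover counting error only, and 7 of the 14 anti-CTLA-4 cells were 1 clone.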

How the data were processed

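Libraries for transcripts and for B cell receptors were prepared with the 10x Genomics 5' V2 kit, as the labels' protocols state. The counts deposited by the authors are UMIs of each gene in each barcode. Their file headers name Cell Ranger 7.0.1, and the submitters' processing notes name bcl2fastq 2.20.0 and mm10. For each receptor contig the authors deposited counts of its UMIs and reads, its gene calls and its region sequences. How reads shared by paralogs were counted is not given in the sources used here. Constant gene coordinates were looked up in the RefSeq gene table of GRCm38.p6. The germline V sequences were not used here, so each V gene's reference was the sequence most common in IgM and IgD cells, held by at least 3 cells, and all 80 cells had one.

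Barcodes with at least 500 genes and at most 10% mitochondrial UMIs were kept, and those with the highest Scrublet scores were removed, 0.8% per 1000 barcodes. The 5 expression libraries, including 2 of anti-CD20 treated mice without receptor libraries, were clustered together in scanpy 1.11.5 (2000 variable genes without immunoglobulin and T cell receptor genes, 30 principal components, 15 neighbours, Leiden resolution 1, leidenalg 0.10.2). B lineage clusters (Cd79a and Cd79b together at 5 or more UMIs in 10000) were clustered again and named at a marker score of at least 1 with 3 markers in at least 5% of cells. The thresholds for names were chosen once the clusters had been inspected. Related cells were joined at 85% CDR3 identity.

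UMIs were summed per library and receptor class into 9 sums and tested with edgeR 4.0.16 (R 4.3.3), with limma 3.58.1 and DESeq2 1.42.0 as alternatives. The libraries pair the sums, since classes of 1 library come from the same mice, and library was therefore a block. The libraries differ in treatment, so p-values measure the spread of a class difference over 3 conditions and not over replicates. In simulated counts of 7146 genes for the comparison with IgM or IgD cells, the test recovered 94 of 100 genes changed 4-fold and 17 of 100 changed 2-fold, with 2 false calls. The changed genes were drawn from those with higher counts. All genes had the same dispersion, and apart from the changed genes all sums had the same profile. Recovery in the real sums, whose mix of cells differed between libraries, was not tested. Named genes were the 10 with the largest positive and negative folds among those called, leaving out mitochondrial, ribosomal and unnamed genes, and up to 4 called genes of each of 15 lists with the smallest p. Members named outside this rule (Bcl6, S1pr2, Tbx21, Tgfbr1 and genes called in germinal centre B-like cells alone, for example) were chosen after their values were seen. Some genes of the lists are not reported here. The members and lists were chosen with earlier results of these data known.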

Additional observations from a re-analysis of the deposited data

Results flagged for a closer look

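The plasma cell-like share of the IgG2b, IgG2c and IgG3 cells exceeded that of IgG1 cells by 69.1 percentage points in the anti-CTLA-4 library and lay below it in the other 2 (differences of -7.47 and -25 points). It stood out because its sign turned between libraries, although the negative differences rest on few cells. In the saline library 0 of 11 members and 1 of 4 IgG1 cells were plasma cell-like. In the isotype library the shares were 45.2% (27.3 to 64.0) and 52.6% (28.9 to 75.6), and these intervals overlap. The difference was not tested, as each group had 1 library.

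Constant gene transcripts were also present in the libraries of anti-CD20 treated mice, for which no receptor library was analysed. CPM here is per all UMIs of the library. Ighg2b stood at 33.0 CPM in the depleted isotype library against 15.8 in the saline library, with 98.4% and 87.7% of its UMIs in 1 cell. Ighg2c stood at 18.5 CPM in the depleted anti-CTLA-4 library against 0.914 in the saline library, with 98.9% and 34.0% of its UMIs in 1 cell. Both were above the saline level, as comparisons of 1 or a few cells.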

How the results depend on the processing

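Of 102 values recomputed under alternative settings 83 kept their direction and their side of the threshold, or moved by less than counting error. Requiring 5 mismatches lowered the mutated share of isotype members to 12.8%, and joining clones at 85% CDR3 identity raised their share in clones to 71.8%. Genes higher and lower than in IgM or IgD cells numbered 1958 and 1323 with limma voom, and 7 and 20 in germinal centre B-like cells only. The lower ones numbered 1169 without the filter on low counts, 1114 with no replicate block and 1122 without the IgG1 sums. Leaving out each library in turn gave 103 to 833 higher and 44 to 631 lower genes, the fewest without the isotype library, where 147 of the 1429 calls remained and 38 of 57 named genes lost theirs. Doublets kept, chosen as an alternative after seeing the data, gave 936 and 772. Against IgG1 cells the 0 calls became 1 higher and 1 lower with DESeq2, 28 and 8 without the filter, 4 higher without plasma cell-like cells and 1 lower in germinal centre B-like cells only, the last also chosen after seeing the data. In those cells 4 named genes reversed, Fcrl1 (0.11), Pim1 (-0.70), H2-Aa (0.079) and Tyms (-0.31). The cause was not tested. Between plasma cell-like members of the 2 tumour libraries, alternatives chosen after seeing the data turned the ratio of Jchain to 0.958 (median over cells) and that of Hspa5 to 0.713 (without the largest clone of each library). With 5, 2 and 2 IgG3 cells a difference in the IgG3 share between the saline and isotype libraries was not detectable at this depth.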

Other observations

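Plasma cell-like members carried transcripts outside the antibody secretion list. Slpi reached 27115 CPM in the isotype and 41799 CPM in the anti-CTLA-4 cells, near the level of Jchain, and was found in all 28 cells. Ly6c2, an Ly6 surface antigen, stood at 1895 and 1825 CPM and Prg2 at 681 and 610 CPM. Cxcl10, a ligand of Cxcr3, was found in 6 of 14 isotype cells (104 CPM) and 7 of 14 anti-CTLA-4 cells (349 CPM), with 36.7% and 43.7% of its UMIs in 1 cell. Mki67, a marker of cycling cells, was found in 8 of 14 and 7 of 14 of them.

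Germinal centre B-like members of the saline, isotype and anti-CTLA-4 libraries had Mki67 at 591, 563 and 493 CPM. The isotype cells had Jchain at 980 CPM against 347 in saline cells, and Pim1 at 155 against 347. For Jchain, 1 cell held 100 of the 247 isotype UMIs and 1 cell 19 of the 54 saline UMIs. The median cell had 12 and 3 Jchain UMIs, at median depths of 20566 and 10241 UMIs.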
